A study of Mus musculus with 4 samples.

Results

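The 32 genes described here are those of glucose uptake, glycolysis, lactate handling, entry of pyruvate into the mitochondrion and the response to low oxygen, taken by symbol from the 32285 gene rows of 2 single-cell count matrices. The cells were tumor-infiltrating T cells sorted from tumors of the mouse melanoma line B16, whose hosts had received a peptide vaccine and an antibody that blocks CTLA-4. The WT library came from Vsir fl/fl mice and the library labelled VISTA-KO from Vsir fl/fl CD4-Cre mice, in which Cre is driven by the Cd4 promoter and so acts in CD4 and CD8 T cells. Both genotypes thus carry the floxed alleles of Vsir, the gene of the checkpoint receptor VISTA, and both received the same treatment. The mice of a genotype were pooled into 1 library, and the methods give an age for mice of another tumor experiment without saying that it covers these. Differences between genotypes therefore have no replicate check, and are given as a ratio with an exact interval that covers counting error only.

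Cells with at least 600 genes and under 30% mitochondrial UMIs were kept (10224 of 10337 barcodes in WT and 9946 of 10085 in VISTA-KO, with 144 barcodes shared between the kept cells of the 2 libraries). They were grouped by their own UMIs (transcripts counted once by molecular barcode). Cells with 2 or more Siglech UMIs were set apart first, and numbered 221 in WT and 138 in VISTA-KO. Of the rest, 1491 and 1260 were regulatory T cells (Foxp3 and Cd4), 1661 and 2983 conventional CD4 cells (Cd4 without Foxp3), 644 and 553 dividing CD8 cells (Cd8a or Cd8b1 without Cd4, and 2 or more UMIs of Mki67 and Top2a) and 4838 and 3748 other CD8 cells. Within the last group, 1867 and 1373 cells held Tcf7 without Havcr2 and 534 and 620 held Havcr2 without Tcf7. UMIs were summed per library and group and scaled to CPM, the level relative to all UMIs of the sum. The sums ran from 1430496 UMIs in Siglech cells of VISTA-KO to 26596224 in other CD8 cells of WT. Vsir itself stood at 128 and 126 CPM in other CD8 cells and at 114 and 120.4 CPM in conventional CD4 cells of WT and VISTA-KO. Its ratio of VISTA-KO over WT was 0.971 in dividing CD8 cells and 1.03 in regulatory T cells. In Siglech cells the ratio was 0.724, past the 1.3-fold used below as lower. The part of Vsir that Cre removes is not given in the sources used here, so these levels neither bear out nor contradict the labels.

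Glycolysis splits glucose into pyruvate in a chain of enzymes: hexokinase traps the sugar, phosphofructokinase commits it, aldolase and triosephosphate isomerase make the triose, and the lower enzymes from Gapdh to Pkm recover energy. Lactate dehydrogenase turns pyruvate into lactate, which leaves through the monocarboxylate transporters, while the mitochondrial pyruvate carrier and pyruvate dehydrogenase send it to oxidation, a step that Pdk1 restrains. T cells that are activated and divide are known to raise glucose uptake and lactate output even with oxygen present. The transcription factor HIF-1, of which Hif1a encodes the regulated subunit, and MYC bind at many of these genes, and in solid tumors low oxygen stabilizes HIF-1.

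The groups held markers of their kinds, but those listed for conventional CD4 cells (Cd4, Cd40lg and Tnfrsf4) did not set that group apart. The marker lists include the genes that set the groups (Cd8a, Cd8b1, Cd4, Foxp3, Mki67, Top2a and Siglech). Their sums are thus in part fixed by the grouping, and sums without those genes are not given here. They summed to 779 and 939 CPM in conventional CD4 cells of WT and VISTA-KO and to 1291 and 1614 CPM in regulatory T cells. In the CD8 groups 343 cells of WT and 174 of VISTA-KO held a Foxp3 UMI. A further 3 exceptions in purity bear on the genes below. First, a few very deep cells carried melanoma RNA. Cells with 5 or more UMIs summed over Mlana, Pmel, Dct and Tyrp1, called melanoma-marked here, numbered 3 in dividing CD8 cells of each library, 1 and 2 in conventional CD4 cells, 1 and 2 in regulatory T cells, 0 and 1 in Siglech cells and 0 in other CD8 cells of WT and VISTA-KO. The 3 in dividing CD8 cells of VISTA-KO had a median of 107883 UMIs and held 5452 of the group's 5460 UMIs of those 4 genes. The summed level of the 8 melanoma markers was 40.7 and 902 CPM in dividing CD8 cells of WT and VISTA-KO, 257 and 23.4 CPM in conventional CD4 cells, 10.2 and 221 CPM in regulatory T cells, and about the same in both libraries in other CD8 cells (4.14 and 4.33 CPM). Second, 50.9% of regulatory T cells in WT and 29.1% in VISTA-KO also held a Cd8a or Cd8b1 UMI, and 29.9% and 19.7% of conventional CD4 cells did. Cd8a and Cd8b1 summed to 848 and 387 CPM in regulatory T cells (WT and VISTA-KO) and 894 and 441 CPM in conventional CD4 cells. In other CD8 cells they summed to 2725 and 2578 CPM. In WT these UMIs were 14858 in 759 regulatory T cells, 8695 in 497 conventional CD4 cells and 72480 in 4838 other CD8 cells. Their mean per cell with such a UMI was no lower in WT than in other CD8 cells, but was lower in VISTA-KO. Last, the 6 T cell markers summed to 1558 CPM in Siglech cells of WT and 804 CPM in those of VISTA-KO. The 8 markers of plasmacytoid dendritic cells, of which Siglech is 1, summed to 12777 and 14847 CPM there. None of the 8 was at 0, there or in other CD8 cells, where they summed to 394 and 410 CPM. Results that rest on melanoma-marked cells or on CD4 cells with a Cd8 UMI are given with and without them. These alternatives were chosen after the data were seen.

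The genes spanned a wide range of detection. Of the 32 members, 21 to 24 had a mean of at least 20 CPM over both libraries, depending on the group of cells, and Hk2, Pfkm, Slc16a1, Pfkfb4, Vegfa and Egln3 reached that level in no group. The most abundant were Aldoa (aldolase), Gapdh (glyceraldehyde phosphate dehydrogenase), Pkm (pyruvate kinase) and Ldha (the lactate-forming dehydrogenase subunit). In other CD8 cells of WT and VISTA-KO, Aldoa stood at 1009 and 1045 CPM, Ldha at 828 and 822 CPM, Gapdh at 678 and 940.4 CPM and Pkm at 668 and 619 CPM. These values are relative UMI counts and are set side by side only as measured amounts of RNA tags. Some members that lay at low levels or passed few tests are given by the range of their level over the 7 groups in both libraries. Vegfa ran from 0.297 to 5.59 CPM and Pfkm, the muscle phosphofructokinase subunit, from 3.91 to 6.86 CPM. Slc16a1 (the lactate transporter MCT1) ran from 0.699 to 10.9 CPM, and Egln3 from 4.05 to 14.7 CPM. Mpc2, the partner of Mpc1 in the mitochondrial pyruvate carrier, ran from 96.4 to 119.9 CPM, and Pdha1, a pyruvate dehydrogenase subunit, from 57.4 to 82.2 CPM, and neither passed edgeR's test in any of the 5 contrasts below. Levels of most members were lowest in Tcf7 CD8 or Siglech cells and highest in dividing CD8, Havcr2 CD8 or regulatory T cells.

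**Figure D1:**
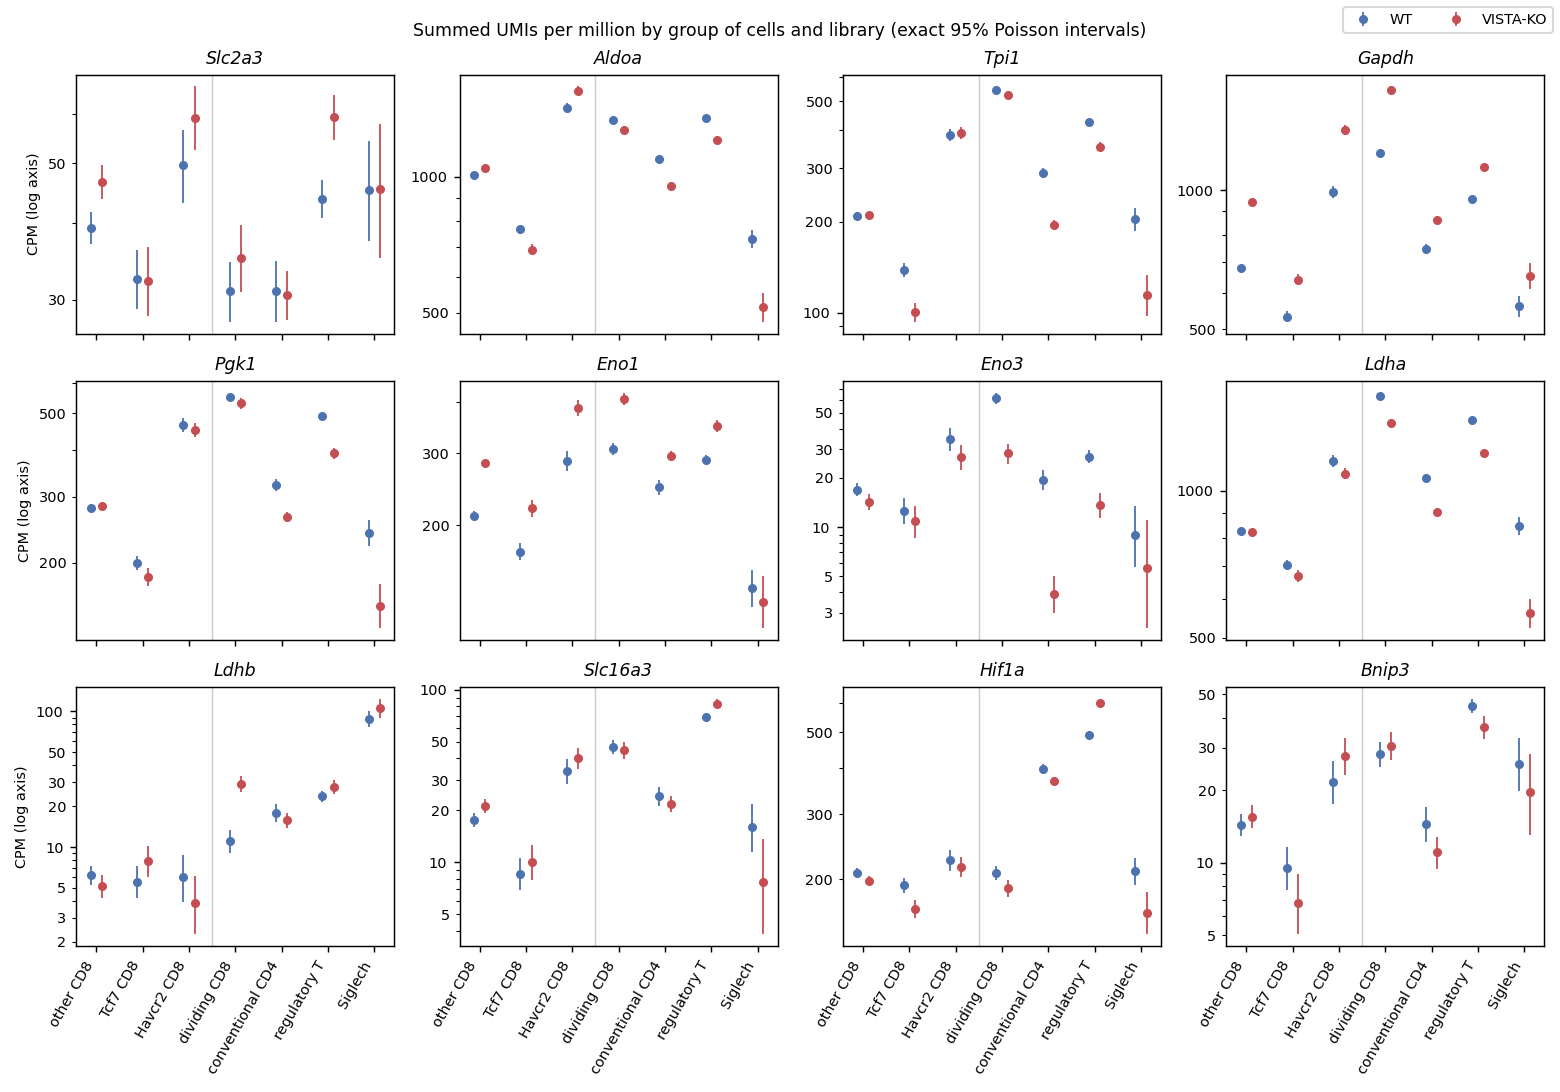
Summed UMIs as CPM (log axis) of 12 member genes in 7 groups of cells, with WT in blue and VISTA-KO in red and exact 95% Poisson intervals; the 2 groups beside other CD8 on the left are subsets of it. Tpi1 ran from 100.2 CPM in Tcf7 CD8 cells of VISTA-KO to 545 CPM in dividing CD8 cells of WT, and red lies above blue for Gapdh in every group shown.

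The promoters of several members hold ACGTG, a core that HIF-1 recognizes. RefSeq windows (GRCm38.p6, from 250 bases before to 50 after the start) were found for 31 of the 32 members, all but Slc2a3. At least 1 match to ACGTG on either strand lay in the first listed window of 15 of 31 members (48.4%), against 19.7% of 27025 genes in the table. CACGTG, the E-box that MYC recognizes and that contains ACGTG on both strands, lay in 5 of 31 (16.1%), against 7.24%. A match is a run of letters and not a measured binding site, and no other form of the HIF-1 core was searched for. The shares were not adjusted for base composition or level of expression. The 250 bases before the start are shown for Ldha (chr7:46845554-46845803, plus strand), Slc16a3, the lactate exporter MCT4 (chr11:120948817-120949066, plus strand), Pgk1, phosphoglycerate kinase (chrX:106186850-106187099, plus strand), and Bnip3, a mitophagy receptor (chr7:138909507-138909756, minus strand), which were higher by edgeR in both contrasts within CD8 cells described below (Bnip3 not with thinned cells in the first), and for Tpi1, triosephosphate isomerase (chr6:124814159-124814408, minus strand), which had the widest range as a fold over the 7 groups among members at 20 CPM or more in each and whose window held no match. They are written 5′ to 3′ on the gene's strand, with letters that belong to a match of ACGTG on either strand in capitals.
Ldha promoter: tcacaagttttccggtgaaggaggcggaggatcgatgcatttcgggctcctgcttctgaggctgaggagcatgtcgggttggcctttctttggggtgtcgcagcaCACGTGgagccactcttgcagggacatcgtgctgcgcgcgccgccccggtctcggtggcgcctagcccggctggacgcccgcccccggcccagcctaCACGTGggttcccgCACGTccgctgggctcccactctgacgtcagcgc
Slc16a3 promoter: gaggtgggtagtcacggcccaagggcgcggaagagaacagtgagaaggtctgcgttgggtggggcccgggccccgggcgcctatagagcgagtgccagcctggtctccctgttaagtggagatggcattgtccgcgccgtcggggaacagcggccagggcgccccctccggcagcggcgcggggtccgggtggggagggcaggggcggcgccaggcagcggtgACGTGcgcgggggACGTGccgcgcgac
Pgk1 promoter: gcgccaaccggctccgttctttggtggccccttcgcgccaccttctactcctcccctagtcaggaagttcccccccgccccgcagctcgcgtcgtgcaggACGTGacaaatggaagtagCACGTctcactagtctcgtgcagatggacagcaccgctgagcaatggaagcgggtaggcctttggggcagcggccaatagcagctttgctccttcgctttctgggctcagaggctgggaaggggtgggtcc
Bnip3 promoter: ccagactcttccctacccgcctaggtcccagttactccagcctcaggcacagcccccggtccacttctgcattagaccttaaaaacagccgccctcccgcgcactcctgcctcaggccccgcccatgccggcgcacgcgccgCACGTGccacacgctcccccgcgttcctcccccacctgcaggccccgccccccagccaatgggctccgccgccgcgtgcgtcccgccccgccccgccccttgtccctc
Tpi1 promoter: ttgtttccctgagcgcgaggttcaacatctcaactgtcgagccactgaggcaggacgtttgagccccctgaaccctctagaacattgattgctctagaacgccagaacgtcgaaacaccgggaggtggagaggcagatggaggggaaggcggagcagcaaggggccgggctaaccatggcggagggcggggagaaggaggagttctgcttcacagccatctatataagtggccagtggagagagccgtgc
Ldha held 5 matches in these bases, counting each strand of its 2 E-boxes, while Slc16a3 and Pgk1 held 2 each. Bnip3 held 2, which are the strands of 1 E-box. Of the other members higher by edgeR in both of those contrasts, Gapdh, Pgam1 and Higd1a held 1 match each in their windows. Tpi1, Eno1, Eno3, Pkm, Pfkl and Pfkp were also higher in both and held none in the first of theirs. The promoters shown with matches thus do not stand for all members that rose, and a link between match and rise was not tested.

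Dividing CD8 cells held more RNA of the lower glycolytic chain than other CD8 cells. All 6 members from Gapdh to Pkm passed the test as higher, as did all 4 members of the lactate step, 3 of 6 of the upper chain and 3 of 6 hypoxia members. In total 18 of 32 members were higher, where 18.8% of the 12507 genes tested were, and 3 were lower, where 20% of all genes were. The median log2 fold change was 0.40 over the members and -0.04 over all genes. The test was edgeR's quasi-likelihood test on the summed UMIs with library as a term. The 2 libraries, which differ in genotype, were the replicates. With library as a term, a p-value here rests on how differences between groups varied from one library to the other. That spread was estimated over all 10 sums of the fit, so the other groups of cells enter it too. Dividing cells were deeper, with medians of 14027 and 10826 UMIs per cell in WT and VISTA-KO against 4546 and 4894. With cells thinned to 2000 UMIs 10 members were higher and 1 was lower, and the calls of Slc2a3, Hk2, Pfkl, Ldhb, Slc16a1, Mpc1, Pfkfb3, Vegfa (too low to be tested there), Bnip3 and Higd1a were lost. DESeq2 called 18 higher and 0 lower. Here and in the contrasts below, the shares over all genes belong to the main fit, and none is given for an alternative. Groups were set by unthinned UMIs in the thinned cells too, so the gates still depend on depth there.

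Tpi1, which interconverts the trioses, stood at 209 CPM (WT) and 210.3 CPM (VISTA-KO) in other CD8 cells and at 545 CPM (WT) and 525 CPM (VISTA-KO) in dividing cells (log2 fold change 1.3, SE 0.17, adjusted p = 0.000568, edgeR). Both dividing sums were above both others. Among the lower enzymes, Gapdh (0.77 on the log2 scale), Pgk1 (0.90), Pgam1, phosphoglycerate mutase (0.86), and Pkm (0.72) rose by similar amounts, and Eno1, the main enolase of most tissues, by less (0.49). Pgam1 went from 225 and 222 CPM to 436 and 404 CPM in WT and VISTA-KO, and Pkm from 668 and 619 CPM to 1147 and 1044 CPM. Eno3, the enolase known from muscle, rose too (log2 fold change 1.37, SE 0.34, adjusted p = 0.0124, edgeR), from 17 and 14.3 CPM to 61.5 and 28.2 CPM. Ldha went from 828 and 822 CPM to 1566 and 1375 CPM (log2 fold change 0.78, SE 0.12, adjusted p = 0.00155, edgeR), and Slc16a3 from 17.6 and 21.3 CPM to 46.5 and 44.7 CPM (log2 fold change 1.19, SE 0.17, adjusted p = 0.000815, edgeR). The phosphofructokinase subunits Pfkl (0.40) and Pfkp (0.26) rose by less, as did Higd1a, a hypoxia-inducible mitochondrial protein (0.41). With thinned cells Pfkl was at 0.0622 (adjusted p = 0.848, edgeR) and Higd1a at 0.186 (adjusted p = 0.204, edgeR), while Pfkp kept its call at 0.343 (adjusted p = 0.0247, edgeR). Slc2a3, the glucose transporter GLUT3, was lower in dividing cells (log2 fold change -0.42, SE 0.11, adjusted p = 0.0192, edgeR), at 31 and 35.1 CPM against 39.3 and 46.7 CPM, but was at -0.0781 (adjusted p = 0.806, edgeR) with thinned cells. Pdk1, the kinase that restrains pyruvate oxidation (-0.44), and Pfkfb3, which makes the activator of phosphofructokinase (-0.44), were lower as well, although Pfkfb3 was at 0.0191 with thinned cells. Slc2a1 (GLUT1), at 47.5 and 52.1 CPM in other CD8 cells and 49.5 and 60.5 CPM in dividing cells, did not pass (adjusted p = 0.502, edgeR), nor did Aldoa (adjusted p = 0.0819, edgeR) or Hif1a (adjusted p = 0.662, edgeR).

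Without the melanoma-marked cells, Ldhb, Vegfa and Mpc1 lost the call. Ldhb, the dehydrogenase subunit that favours pyruvate, moved from a log2 fold change of 1.69 to 0.25 (adjusted p = 0.417, edgeR), and Hk2, the inducible hexokinase, from 1.54 to 0.72 (adjusted p = 0.0442, edgeR). Vegfa, the angiogenic growth factor, moved from 2.17 to 1.46 (adjusted p = 0.126, edgeR). Mpc1 went from 0.21 to 0.18 (adjusted p = 0.0962, edgeR). Bnip3 kept its call at 0.53 against 0.93, but with thinned cells was at 0.38 (adjusted p = 0.375, edgeR). The 3 marked cells of VISTA-KO held 176 of the 210 Ldhb UMIs and 75 of the 111 Hk2 UMIs of their group. Tpi1 was then at 1.15 and Ldha at 0.77.

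Within the other CD8 group, subsets differed in most members. Cells with Havcr2, the exhaustion marker TIM-3, and no Tcf7 held more RNA of 20 of 31 members tested than cells with Tcf7, a factor of memory-like cells, and no Havcr2, where 14.0% of 10623 genes were higher. Pdk1 was the 1 member lower (log2 fold change -0.89, SE 0.18, adjusted p = 0.00697, edgeR), where 13.2% of all genes were. The median log2 fold change was 0.54 over the members and -0.01 over all genes. Both transporters, 5 of 6 members of the upper chain and all 6 of the lower chain passed as higher. The Havcr2 cells were deeper, with medians of 7056.5 and 6801 UMIs per cell against 4549 and 4891, and with cells thinned to 2000 UMIs 13 members passed as higher and 1 as lower, and the calls of Slc2a1, Hk1, Pfkl, Eno3, Hif1a, Higd1a and P4ha1 were lost. The split itself was made on unthinned UMIs in the thinned cells too, and so still depends on depth. DESeq2 called 13 higher and 0 lower.

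Slc16a3 showed the largest difference, at 8.62 CPM (WT) and 10.1 CPM (VISTA-KO) in Tcf7 cells and 33.9 CPM (WT) and 40.1 CPM (VISTA-KO) in Havcr2 cells (log2 fold change 1.97, SE 0.15, adjusted p = 4.72e-05, edgeR). Tpi1 stood at 138 and 100.2 CPM in Tcf7 cells and at 387 and 393 CPM in Havcr2 cells (log2 fold change 1.71, SE 0.12, adjusted p = 3.09e-05, edgeR). Bnip3 went from 9.51 and 6.79 CPM to 21.7 and 27.7 CPM (log2 fold change 1.57, SE 0.22, adjusted p = 0.00142, edgeR). In each of these the 2 sums of Havcr2 cells lay above the 2 of Tcf7 cells. Eno3 (1.37 on the log2 scale), Pgk1 (1.24), Aldoa (1.02), Gapdh (0.97), Pgam1 (0.92), Pkm (0.87), Eno1 (0.77) and Ldha (0.69) followed. Aldoa, for one, went from 765 and 689.6 CPM to 1424 and 1553 CPM. Of the members of uptake and commitment, Slc2a3 was at 0.73, Slc2a1 at 0.50, and Hk1, the constitutive hexokinase, at 0.38, with Pfkp at 0.58, Gpi1, glucose phosphate isomerase, at 0.54 and Pfkl at 0.49. P4ha1, a prolyl hydroxylase of collagen and a known HIF target (0.71), Higd1a (0.36) and Hif1a (0.29) were also higher. Mpc1 did not pass (log2 fold change 0.08, SE 0.09, adjusted p = 0.589, edgeR), and neither did Ldhb, which stood at 5.55 and 7.88 CPM in Tcf7 cells and 6.0 and 3.84 CPM in Havcr2 cells.

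Regulatory T cells held more RNA of some hypoxia-linked and lower glycolytic genes than conventional CD4 cells. As higher, 3 of 6 hypoxia members, 4 of 6 of the lower chain and 2 of 6 of the upper chain passed. Vegfa lay the other way at a low level, at 0.742 and 1.05 CPM in regulatory T cells of WT and VISTA-KO against 2.26 and 1.83 CPM. Without cells holding a Cd8a or Cd8b1 UMI, Vegfa stood at 0.781 and 1.27 CPM against 0.848 and 1.06 CPM. In all, 11 of 32 members were higher, where 6.34% of genes were, with a median log2 fold change of 0.32 against -0.01 over all genes. By edgeR 0 were lower, where 5.48% of genes were, with 1 member lower at an unadjusted p under 0.05 and 0 by DESeq2. Slc16a3 stood at 24.2 CPM (WT) and 21.8 CPM (VISTA-KO) in conventional CD4 cells and at 69.2 CPM (WT) and 82.7 CPM (VISTA-KO) in regulatory T cells (log2 fold change 1.71, SE 0.17, adjusted p = 0.000657, edgeR). Bnip3 went from 14.5 and 11 CPM to 44.7 and 36.5 CPM (log2 fold change 1.68, SE 0.15, adjusted p = 0.000539, edgeR). Hif1a was at 398 and 368 CPM in conventional CD4 cells and at 492 and 599 CPM in regulatory T cells (log2 fold change 0.50, SE 0.12, adjusted p = 0.0351, edgeR), its highest level of the 5 groups in both libraries.

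P4ha1 (0.74 on the log2 scale), Slc2a3 (0.72), Tpi1 (0.69), Pkm (0.68), Pgk1 (0.58), Pgam1 (0.47), Pfkl (0.38) and Gapdh (0.36) were the other members that passed. Pkm, for one, went from 839.8 and 697 CPM to 1344 and 1137 CPM, and P4ha1 from 27 and 25.7 CPM to 40.8 and 48.2 CPM. Ldha, at 1063 and 907 CPM in conventional CD4 cells and 1398 and 1196 CPM in regulatory T cells, missed the threshold (adjusted p = 0.0823, edgeR). Without the cells that held a Cd8a or Cd8b1 UMI it passed (log2 fold change 0.49, adjusted p = 0.0274, edgeR). So did Aldoa (adjusted p = 0.0417, edgeR), Gpi1 (adjusted p = 0.0189, edgeR) and Eno3 (log2 fold change 1.64, adjusted p = 0.00646, edgeR). Ldhb passed without the melanoma-marked cells (log2 fold change 0.68, adjusted p = 0.037, edgeR). It did not pass without cells holding a Cd8 UMI (0.62, adjusted p = 0.282, edgeR) or with thinned cells (0.33, adjusted p = 0.375, edgeR). The median depth was 8739 and 5908 UMIs per regulatory T cell and 3922 and 4192 per conventional CD4 cell. The dividing markers summed to 1254 and 814 CPM in regulatory T cells and to 868 and 732 CPM in conventional CD4 cells, and their part in this contrast was not tested. With thinned cells, or without cells holding a Cd8 UMI, each member that had passed as higher kept its call. Ldha, Aldoa, Gpi1 and Eno3 passed with thinned cells too (adjusted p = 0.021, 0.00412, 0.0293 and 0.000225, edgeR). The gates still rest on unthinned UMIs there. With stricter gates 7 members were higher, and without the library term 4 were.

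Conventional CD4 and other CD8 cells differed in few of these genes. By the same test 4 members were higher in conventional CD4 cells, where 3.83% of genes were, and 1 was lower, where 2.36% were. Hif1a was higher (log2 fold change 0.82, SE 0.13, adjusted p = 0.00878, edgeR), at 398 and 368 CPM against 208 and 198 CPM in other CD8 cells, as was Egln3, an oxygen-sensing hydroxylase that marks HIF for destruction (log2 fold change 1.31, SE 0.18, adjusted p = 0.00582, edgeR), at 12.6 and 13 CPM against 4.55 and 5.2 CPM. Ldhb was higher as well, at 17.8 and 15.8 CPM against 6.2 and 5.15 CPM (log2 fold change 1.44, SE 0.32, adjusted p = 0.0365, edgeR), and without the melanoma-marked cells its log2 fold change was 1.24 (adjusted p = 0.00656, edgeR). Slc2a3 was lower (log2 fold change -0.57, SE 0.11, adjusted p = 0.0223, edgeR), at 31 and 30.5 CPM against 39.3 and 46.7 CPM. Vegfa was under 3 CPM in every sum of both groups, and its call (adjusted p = 0.0495, edgeR) was lost without the melanoma-marked cells (adjusted p = 0.174, edgeR), with a log2 fold change of 1.63 against 1.6. With cells holding a Cd8a or Cd8b1 UMI left out of the CD4 groups, its log2 fold change was 0.50 (adjusted p = 0.585, edgeR). Gpi1, Pfkp and Eno3 passed as lower, beside Slc2a3, once cells with a Cd8a or Cd8b1 UMI were left out of the CD4 groups. Without the library term 2 members were higher and 0 lower.

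Siglech cells, which held the plasmacytoid dendritic markers, had more members lower than higher against other CD8 cells. Of 32 members, 6 were higher, a smaller share than the 23.4% of all genes, and 13 were lower, where 21.9% of genes were. The median log2 fold change was -0.28, against -0.04 over all genes. Ldhb stood at 6.2 CPM (WT) and 5.15 CPM (VISTA-KO) in other CD8 cells and at 87.5 CPM (WT) and 106 CPM (VISTA-KO) in Siglech cells (log2 fold change 4.03, SE 0.34, adjusted p = 2.21e-05, edgeR), the largest difference of any member in the 5 contrasts. Mpc1 went from 102 and 94.2 CPM to 222 and 204 CPM (log2 fold change 1.09, SE 0.07, adjusted p = 5.04e-06, edgeR). Pfkfb4, a relative of Pfkfb3, and Vegfa were higher from low levels (2.07 and 1.15 CPM to 10.5 and 16.1 CPM, and 0.489 and 0.77 CPM to 3.52 and 5.59 CPM), and P4ha1 (0.44 on the log2 scale) and Bnip3 (0.60) by less. On the side of glucose use, Hk1 (log2 fold change -0.94, SE 0.14, adjusted p = 0.000721, edgeR), at 41 and 30.1 CPM against 69.8 and 67.7 CPM, was lower, with Slc2a1 (-0.69), Pfkp (-0.63), Aldoa (-0.76), Gapdh (-0.43), Pgk1 (-0.54), Eno1 (-0.86), Pkm (-0.37), Pfkfb3 (-1.01), Pdk1 (-0.52) and Higd1a (-0.63). Slc16a1 (-1.84) and Gpi1 (-0.27) were the other lower members. With the melanoma-marked cells left out of every group Bnip3 missed the threshold (adjusted p = 0.0781, edgeR) at a log2 fold change of 0.58. With cells thinned to 2000 UMIs 3 members were higher, and the calls of Slc16a1, Pdk1, Vegfa (too low to be tested there), Bnip3 and P4ha1 were lost. Slc2a3 stood at 45.3 and 45.4 CPM, beside 39.3 and 46.7 CPM in other CD8 cells, and did not pass (adjusted p = 0.69, edgeR).

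**Figure D2:**
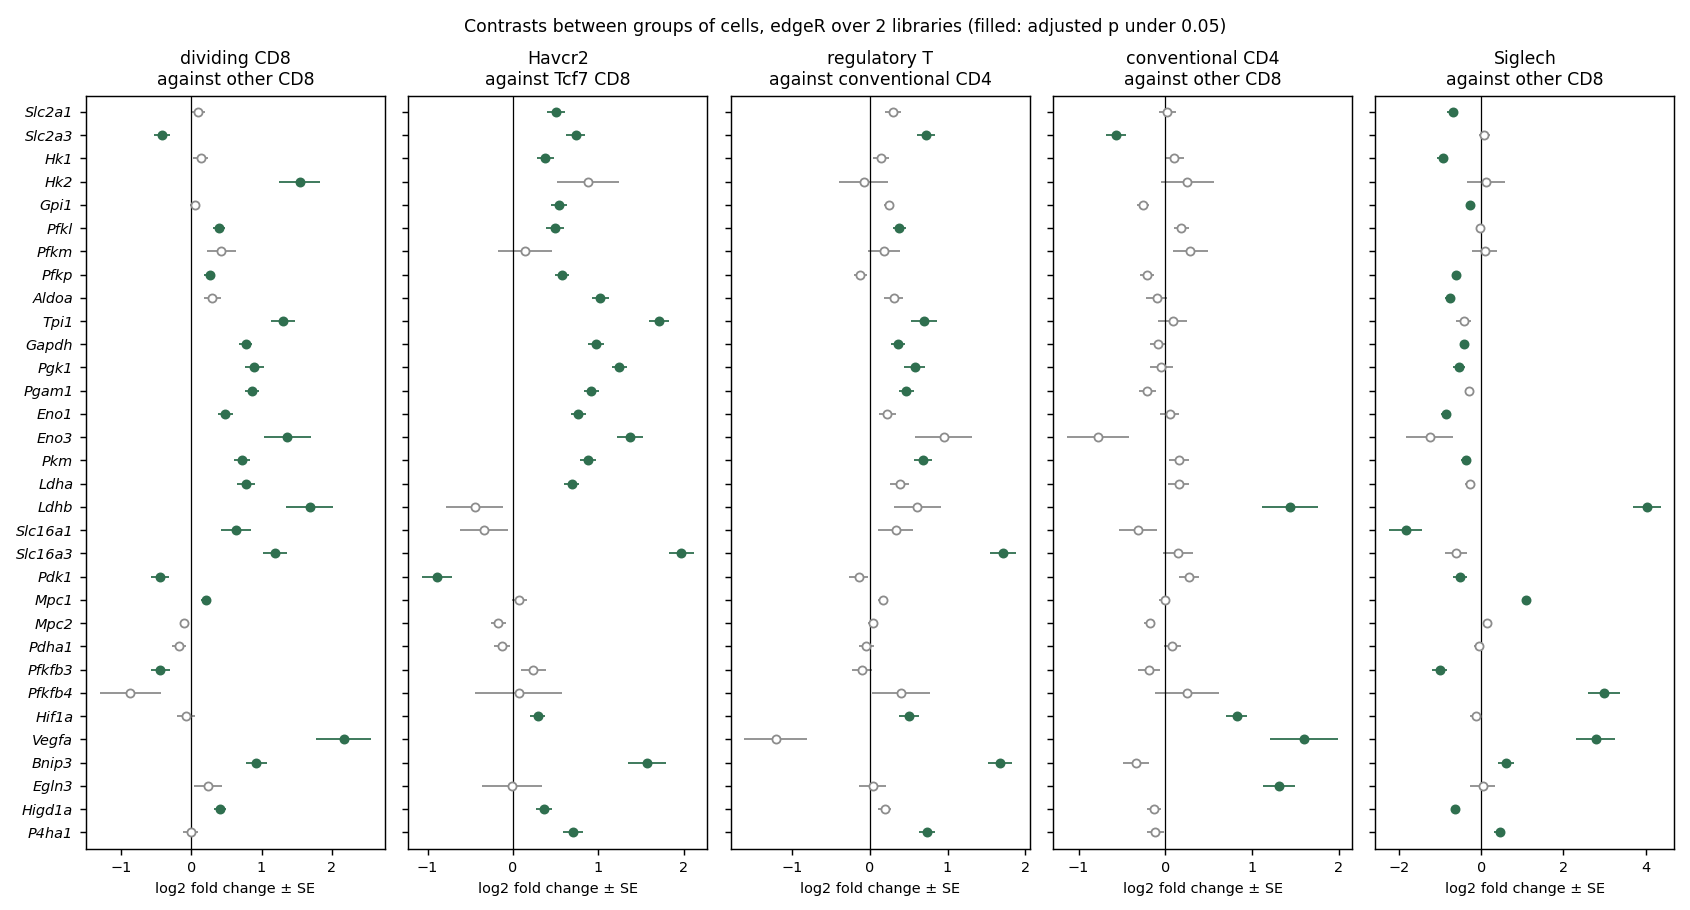
log2 fold changes (horizontal axis, with standard errors) of the members in 5 contrasts between groups of cells; filled points passed edgeR's quasi-likelihood test at an adjusted p under 0.05 over all genes, and each panel has its own horizontal scale. Filled points lie to the right for Tpi1 through Pkm in the first 2 panels (1.3 and 1.71 for Tpi1), and the Siglech panel holds Ldhb at 4.03.

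Between the genotypes, 2 enzymes stood apart from the rest of the chain in other CD8 cells. A gene was counted past the fold when its CPM in VISTA-KO was at least 1.3 times, or at most 1/1.3 of, that in WT, with an interval that left out 1 and a mean of at least 20 CPM. Gapdh and Eno1 were past it, higher in the library labelled VISTA-KO, and 0 of the 21 members at that level were past it lower. Of all genes 1.85% and 1.63% were past it in these directions. Gapdh stood at 678 CPM (WT) and 940.4 CPM (VISTA-KO), a ratio of 1.39, interval 1.36 to 1.42. Eno1 stood at 211 CPM (WT) and 284 CPM (VISTA-KO), a ratio of 1.34, interval 1.3 to 1.4. Their neighbours in the chain had ratios near 1, with Tpi1 at 1.01, Pgk1 at 1.01, Pgam1 at 0.986, Pkm at 0.927 and Ldha at 0.993. The median ratio was 0.986 over members and 0.974 over all genes. Eno1b, a near-identical copy of Eno1 that may share its reads, stood at 56.2 and 53.1 CPM, so the level of Eno1 alone is uncertain. Gapdh, which has many processed copies in the genome, is open to the same uncertainty. Without the largest clonotype of each library, Gapdh was at 1.33 and Eno1 at 1.3, just under the fold.

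The pair was also above 1 in both subsets. In Havcr2 cells Gapdh had a ratio of 1.36, interval 1.31 to 1.41, and Eno1 of 1.35, interval 1.25 to 1.45, the 2 members past the fold there, with 0 lower (3.73% and 4.38% of all genes). In Tcf7 cells they had ratios of 1.2 and 1.28, and the member past the fold was Tpi1, lower in VISTA-KO (138 and 100.2 CPM, ratio 0.724, interval 0.661 to 0.792). There 2.21% of all genes were past it higher and 3.43% lower. In Havcr2 cells the ratio of Tpi1 was 1.02. Slc2a1 and Slc2a3 were at 1.1 and 1.19 in other CD8 cells and Pfkp at 1.16, with intervals above 1 and sizes under the fold.

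In dividing CD8 cells the ratios turned on the melanoma-marked cells. With all cells, Gapdh (1205 and 1647 CPM, ratio 1.37, interval 1.33 to 1.4), Eno1 (308 and 408 CPM, ratio 1.33, interval 1.26 to 1.39) and Ldhb (11 and 29.4 CPM, ratio 2.66, interval 2.11 to 3.38) were past the fold as higher. Eno3 (61.5 and 28.2 CPM, ratio 0.459, interval 0.39 to 0.539) was past it as lower, and of all genes 5.02% and 2.65% were. Without the 3 marked cells of each library, 0 members were past the fold as higher and 3 were lower. No share over all genes is given for that setting, so these counts have no background beside them. Ldhb then stood at 8.41 and 4.96 CPM (ratio 0.589, interval 0.384 to 0.887), under the level to be counted. Gapdh then had a ratio of 1.25, interval 1.22 to 1.29, and Eno1 of 1.18, interval 1.12 to 1.24. Bnip3 moved from a ratio of 1.09 to 0.582, interval 0.463 to 0.728, and Pfkl from 0.845 to 0.75, interval 0.662 to 0.85, both then past the fold. Eno3 kept its call at 0.435, interval 0.366 to 0.514. Tpi1 moved from 0.963 to 0.779, Pgk1 from 0.96 to 0.825, Pgam1 from 0.927 to 0.795, and Pkm and Ldha to 0.833 and 0.84. The median over members moved from 0.973 to 0.890, beside 1.01 over all genes with every cell. Dividing CD8 cells were also deeper in WT (14027 against 10826 UMIs per cell at the median). The dividing markers summed to 2874 and 3652 CPM in WT and VISTA-KO. The part of these 2 differences in the ratios was not tested.

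**Figure D3:**
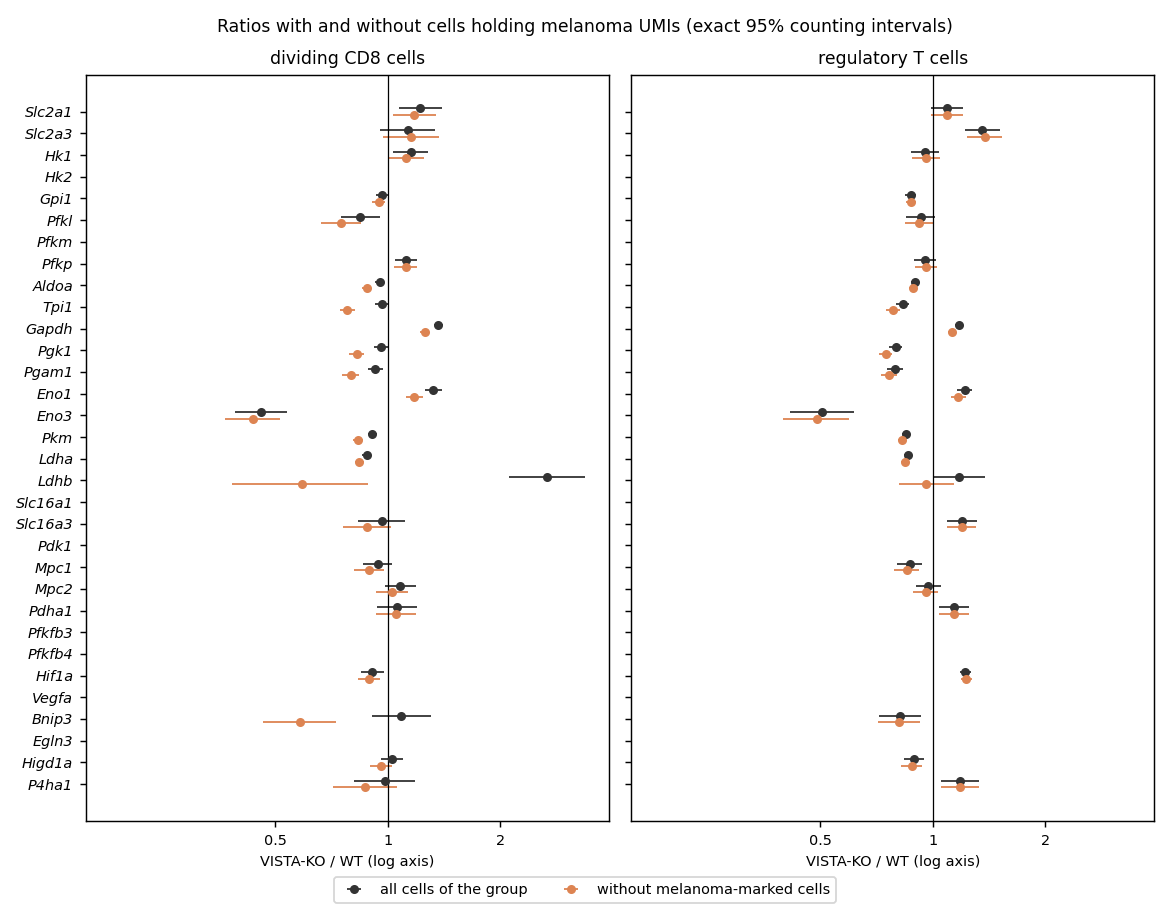
Ratio of CPM in VISTA-KO over WT (log axis) with exact 95% intervals for members at 20 CPM or more, with all cells of the group in black and without the melanoma-marked cells in orange, in dividing CD8 cells and regulatory T cells. In dividing CD8 cells Ldhb moves from 2.66 to 0.589 and Bnip3 from 1.09 to 0.582, while Eno3 stays below 1 in both groups.

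In conventional CD4 cells 1 member was past the fold. Tpi1 stood at 289 CPM (WT) and 195 CPM (VISTA-KO), a ratio of 0.677, interval 0.643 to 0.713. As higher, 0 members were past it (3.00% of all genes were), and as lower 1 was (3.25%). It was at 0.687 without the melanoma-marked cells and at 0.698 without cells holding a Cd8a or Cd8b1 UMI. 16 of 23 members at 20 CPM or more had ratios below 1 (69.6%, beside 59.5% of all genes), with a median of 0.927 beside 0.974 over all genes. The members below 1 included Pgam1 (0.783), Pgk1 (0.82), Pkm (0.83), Pfkl (0.842), Hk1 (0.856), Ldha (0.853), Aldoa (0.872) and Higd1a (0.898), while Gapdh (1.16) and Eno1 (1.19) lay above 1. Without cells holding a Cd8 UMI, Pgam1 (0.729), Pfkl (0.738) and Ldhb (0.689) were past the fold too. Eno3 had a mean under 20 CPM and was not counted, at 19.4 and 3.91 CPM (ratio 0.202, interval 0.148 to 0.271). Without cells holding a Cd8 UMI it stood at 7.42 and 3.17 CPM (ratio 0.427, interval 0.257 to 0.708).

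In regulatory T cells Slc2a3 was past the fold as higher in VISTA-KO (43.8 and 59.4 CPM, ratio 1.36, interval 1.21 to 1.51) and Eno3 as lower (26.9 and 13.6 CPM, ratio 0.506, interval 0.413 to 0.616), where 5.39% and 4.38% of all genes were. Neither kept its call under every alternative. Slc2a3 was at 1.02, interval 0.821 to 1.28, with cells thinned to 2000 UMIs and at 1.23, interval 1.04 to 1.44, without cells holding a Cd8 UMI, and Eno3 was at 0.762, interval 0.553 to 1.05, without the latter. Regulatory T cells were deeper in WT (8739 against 5908 UMIs per cell at the median). Without cells holding a Cd8 UMI the medians were 5233.5 and 5137. With all cells of the group, the dividing markers summed to 1254 and 814 CPM in the same order. The part of these differences in the ratios was not tested. Hif1a stood at 492 and 599 CPM, a ratio of 1.22, interval 1.18 to 1.26, and Slc16a3 (1.2) and P4ha1 (1.18) also lay above 1. Without cells holding a Cd8 UMI these were at 1.04, interval 0.996 to 1.09, at 1.13, interval 0.991 to 1.28, and at 1.04, interval 0.872 to 1.23, each with an interval that includes 1. Gapdh (1.17) and Eno1 (1.22) lay above 1 as well, with sizes under the fold. Without cells holding a Cd8 UMI they were at 1.17, interval 1.13 to 1.22, and at 1.23, interval 1.15 to 1.31. Pgk1 (0.795), Pgam1 (0.792), Bnip3 (0.816), Tpi1 (0.831), Pkm (0.846) and Ldha (0.856) lay below. Without the melanoma-marked cells Pgk1 (0.748, interval 0.719 to 0.778) and Pgam1 (0.763, interval 0.726 to 0.801) were past the fold, and without cells holding a Cd8 UMI so were both of these, Bnip3 (0.764) and Pkm (0.757). The median ratio was 0.94, beside 0.995 over all genes.

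In Siglech cells 6 of 22 members at 20 CPM or more were past the fold as lower in VISTA-KO, where 6.33% of all genes were, and Pdha1 as higher (57.4 and 81.1 CPM, ratio 1.41, interval 1.1 to 1.81), where 4.82% were. The lower members were Tpi1 (204 and 114 CPM, ratio 0.559, interval 0.466 to 0.668), Pgk1 (241 and 154 CPM, ratio 0.639, interval 0.546 to 0.747), Pkm (616 and 407 CPM, ratio 0.66, interval 0.599 to 0.726), Ldha (847 and 561 CPM, ratio 0.663, interval 0.61 to 0.719), Aldoa (729.6 and 513 CPM, ratio 0.703, interval 0.645 to 0.766) and Pgam1 (210.1 and 161 CPM, ratio 0.769, interval 0.656 to 0.898). The median over members was 0.818, beside 0.984 over all genes. T cell RNA was also lower in these cells in VISTA-KO, as given above, and its part in the ratios was not tested. With cells thinned to 2000 UMIs, Ldha (0.694) and Pkm (0.708) stayed past the fold, while Tpi1 (0.826, interval 0.537 to 1.25), Aldoa, Pgam1 and Pgk1 did not. Gapdh had a ratio of 1.16 and Mpc1 of 0.919.

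**Figure D4:**
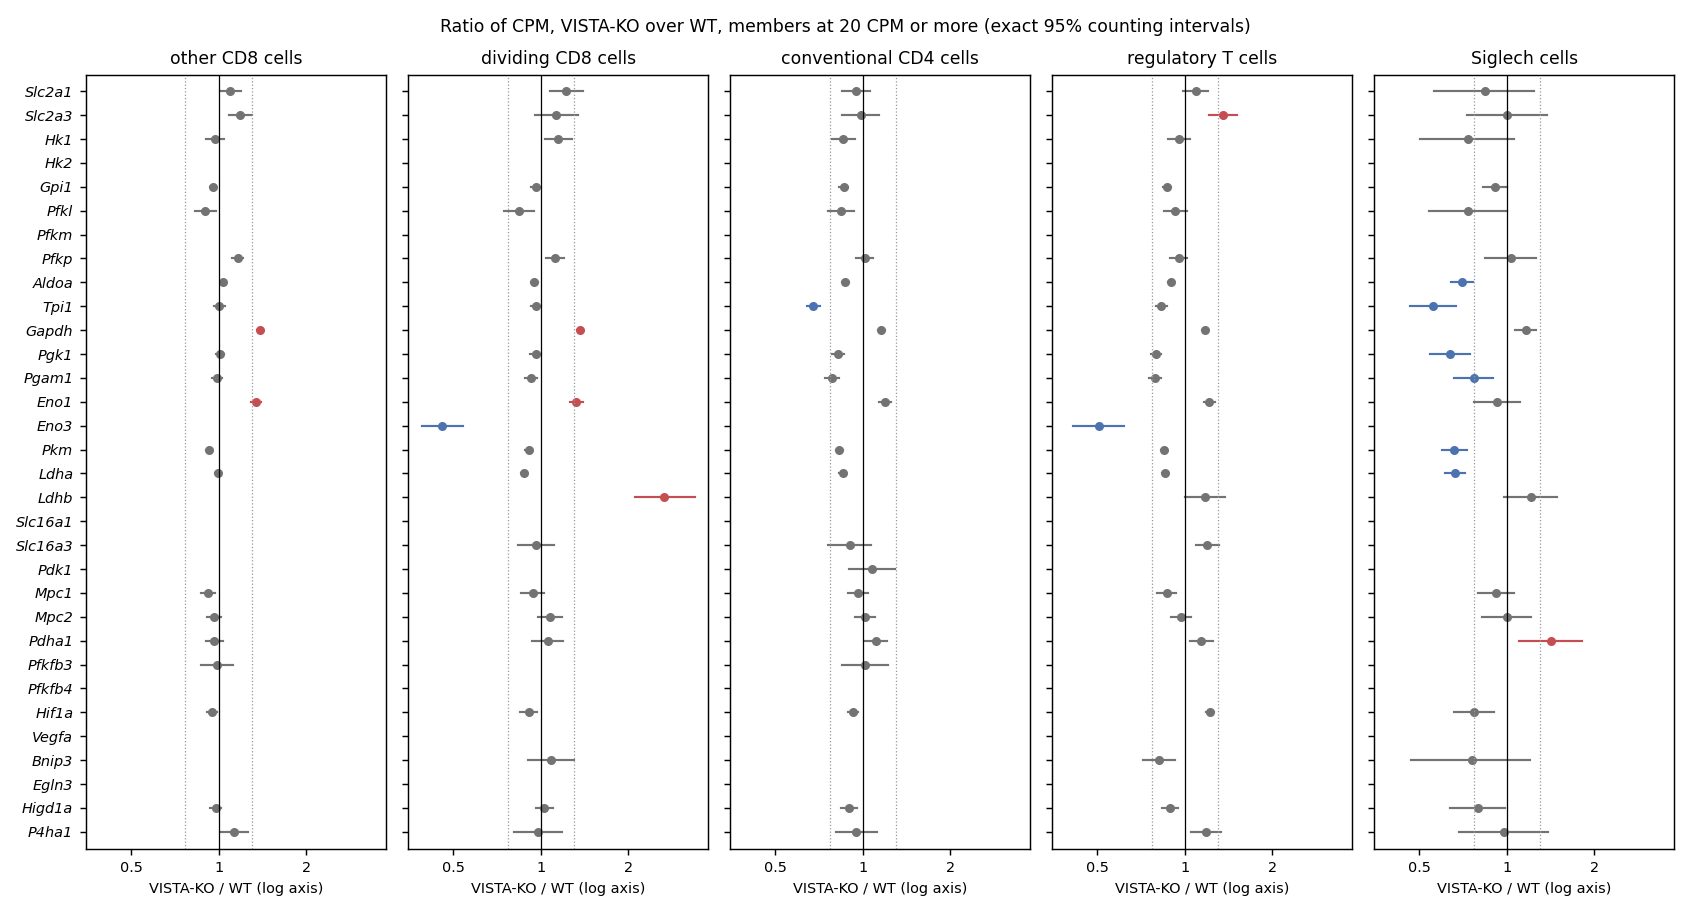
Ratio of CPM in VISTA-KO over WT (log axis) with exact 95% counting intervals in 5 groups of cells, for members with a mean of at least 20 CPM; red and blue mark those past 1.3-fold (dotted lines) as higher and lower. Gapdh and Eno1 are red in both CD8 panels (1.39 and 1.34 in other CD8 cells), and 6 of the blue points are in Siglech cells. Without the melanoma-marked cells neither Gapdh nor Eno1 was past the fold in dividing CD8 cells. In other CD8 cells Eno1 fell just under the fold without the largest clonotype of each library.

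Levels summed over cells hide how unevenly the RNA was spread. Gapdh was seen in 4038 of 4838 cells (83.5%) of the other CD8 group in WT and 3356 of 3748 cells (89.5%) in VISTA-KO. With cells thinned to 2000 UMIs these shares were 64.3% (interval 62.9% to 65.7%) and 74.3% (interval 72.8% to 75.7%). Here and in the next paragraph, intervals of shares treat the cells of a library as independent and leave out differences between mice. Thinned cells have equal depth, so a higher summed level tends to bring a higher share. The shares of Gapdh thus describe the same difference as its level and are not separate evidence for it. Eno3 RNA was held by fewer cells. In dividing CD8 cells it was seen in 207 of 644 cells (32.1%) in WT and 92 of 553 cells (16.6%) in VISTA-KO, and in 7.09% (interval 5.22% to 9.37%) and 2.55% (interval 1.4% to 4.24%) of thinned cells. Cells with 3 or more Eno3 UMIs were 81 in WT and 24 in VISTA-KO and held 73.6% and 58.4% of its UMIs. In conventional CD4 cells of WT the 10 highest cells held 46.6% of the Eno3 UMIs. Thinned shares were 1.82% (interval 0.498% to 4.59%) and 2.92% (interval 0.801% to 7.31%) in Siglech cells and 1.6% and 1.4% in other CD8 cells, while the level was higher in the latter (8.98 and 5.59 CPM against 17 and 14.3 CPM), so no order is read from these shares.

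After thinning, Tpi1 was seen in 22.3% and 22.3% of other CD8 cells in WT and VISTA-KO, and in 34% and 35.9% of the Havcr2 subset against 18.7% and 14.9% of the Tcf7 subset. In dividing CD8 cells the shares were 49.9% (interval 46% to 53.9%) and 38.6% (interval 34.5% to 42.8%). Unthinned, Tpi1 was seen in 519 of 644 cells (80.6%) and 395 of 553 cells (71.4%) of dividing CD8 cells. Hif1a was seen in 62.5% and 66.5% of thinned regulatory T cells and in 50.1% and 45.3% of thinned conventional CD4 cells, against 30.8% and 29% of other CD8 cells. Slc16a3 was seen in 12.9% and 13.3% of thinned regulatory T cells and in 1.36% and 1.46% of Siglech cells.

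Other genes of the same pathways, from a list of 79, were tested in the same contrasts. In Havcr2 against Tcf7 CD8 cells 18 of 57 tested were higher and 5 lower (31.6% and 8.77%, beside the 14.0% and 13.2% of all genes). The higher ones included Mxi1, a MYC antagonist and hypoxia target (1.68 on the log2 scale, SE 0.11), Plod2, a collagen lysyl hydroxylase (2.04, SE 0.20), and Epas1, which encodes HIF-2α (2.22, SE 0.34), and the lower ones included Siah1a, a ubiquitin ligase of HIF regulators (-1.04, SE 0.15). In regulatory T against conventional CD4 cells 10 of 66 tested were higher and 2 lower (15.2% and 3.03%, beside 6.34% and 5.48%), with Aldoc, another aldolase (2.00, SE 0.18), Ndrg1 (1.85, SE 0.17) and Ddit4, a brake on mTORC1 (1.41, SE 0.19), highest. In dividing against other CD8 cells 14 were higher and 8 lower (21.2% and 12.1%, beside 18.8% and 20%). In Siglech against other CD8 cells 16 were higher and 15 lower (24.2% and 22.7%), near the 23.4% and 21.9% of all genes. In conventional CD4 against other CD8 cells 2 were higher (3.03%, beside 3.83%). Of the pentose phosphate list, Tkt, transketolase, was higher in dividing CD8 cells (0.78), Havcr2 cells (0.73), regulatory T cells (0.48) and Siglech cells (0.60). Siglech cells also stood out for Adpgk, the ADP-dependent glucokinase, at 175 and 179.7 CPM against 15.5 and 16.9 CPM in other CD8 cells, and for Slc2a6, a hexose transporter, at 64.4 and 62.2 CPM against 1.39 and 0.77 CPM. These examples were chosen after their values were seen.

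Between the genotypes, 4 of the other pathway genes were past the fold in at least 2 groups. Bhlhe40, a hypoxia-inducible repressor, was higher in VISTA-KO in all 5 groups, with ratios from 1.33 in regulatory T cells to 1.58 in conventional CD4 cells, where it stood at 544 and 862 CPM. Ddit4 was lower in other CD8 cells (129 and 89.9 CPM, ratio 0.696, interval 0.657 to 0.736), in dividing CD8 cells (0.708), in conventional CD4 cells (0.656) and in Siglech cells (0.366), and had a ratio of 0.882 in regulatory T cells. Myc was lower in dividing CD8 cells (157 and 87.9 CPM, ratio 0.558, interval 0.508 to 0.613) and in conventional CD4 cells (0.651) and had a ratio of 1.18 in other CD8 cells. Rpia, of the pentose phosphate pathway, was higher in dividing CD8 cells (1.33) and Siglech cells (1.53). Without the melanoma-marked cells each of these stayed past the fold, with Rpia at 1.38, Bhlhe40 at 1.33, Ddit4 at 0.718 and Myc at 0.55 in dividing CD8 cells. Without cells holding a Cd8 UMI, Myc was at 0.991, interval 0.838 to 1.18, in conventional CD4 cells, and Bhlhe40 at 1.28 in regulatory T cells, neither past the fold. Under that setting Ddit4 was at 0.68 in regulatory T cells and Rpia at 1.31 in conventional CD4 cells, both past it. Whether the ratios differ between groups of cells was not tested, since each genotype has 1 library.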

How the data were processed

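The authors deposited matrices of unnormalized UMI counts, 1 per genotype, made with Cell Ranger 5.0.0 per the file headers, with the builds mm10 and GRCm38 and Seurat 4 named in the submitters' processing notes. Labels and methods name different kits (3′ and 5′). How the counting treats reads shared by near-identical genes is not given in the sources used here. Of the 2 rows named Aldoa the first was used. The second held 17 and 22 UMIs in the kept cells of WT and VISTA-KO and was left out. Cells were filtered as in the study's methods, grouped by UMIs of gate genes and summed per library. Doublets stayed in. Scrublet's own threshold marked at most 1 cell per library, so an alternative left out cells above percentile 92 of its score or with 2 productive beta chains. Ratios of CPM carry exact conditional binomial 95% intervals. Contrasts used edgeR 4.0.16 (R 4.3.3, TMM, filterByExpr, library as a term, 10 sums of counts, or 4 for Havcr2 against Tcf7), Benjamini-Hochberg at 0.05 over all genes, with DESeq2 1.42.0 as an alternative, and were tested on simulated data. Members given in full passed the fold in at least 2 groups or the test in at least 3 contrasts, or were the most abundant of their role. Hk2, Gpi1, Slc16a1, Pdha1, Pfkfb4 and Egln3 were described after their values were seen, and Pfkm and Mpc2 are given by their range. The members and lists were chosen with earlier results of these data known. T cell receptor libraries served to find the largest clonotype and doublets.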

Additional observations from a re-analysis of the deposited data

How the results depend on the processing

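Of 234 recomputed counts and medians, 201 kept their direction and size, 15 moved, 14 were smaller and 4 larger. Of 833 values of single members, 693 stayed, 27 moved, 75 lost a call, 34 gained one and 4 turned direction. The settings on melanoma-marked cells and on cells with a Cd8 UMI were chosen after seeing the data. The shares over all genes printed above belong to the main setting alone. For the genotypes, other CD8 cells held 1 member past the fold without the largest clonotype. The median ratio in dividing CD8 cells was 0.890 without melanoma-marked cells and 0.906 with each cell weighted equally. Conventional CD4 cells held 2 members past the fold without doublets, 4 without cells holding a Cd8 UMI and 3 at a mean of 5 CPM. Regulatory T cells held 4 in each of the thinned cells, the cells without melanoma-marked ones and those without a Cd8 UMI. Ldhb in dividing CD8 cells turned direction, to 0.365 thinned, 0.589 without melanoma-marked cells and 0.869 with each cell weighted equally. In dividing against other CD8 cells 10 members were higher and 1 lower when thinned, Pfkfb3 turned to a log2 fold change of 0.0191, and DESeq2 called 0 lower. In regulatory T against conventional CD4 cells 7 were higher with stricter gates and 4 with no library term. With thinned cells, or without cells holding a Cd8 UMI, the higher members of that contrast kept their calls. Ldha, Aldoa, Gpi1 and Eno3 passed as higher too in both of those settings. In conventional CD4 against other CD8 cells 2 were higher without doublets, without the largest clonotype, with stricter gates or with no library term. As lower, 2 passed with DESeq2, with the sums of those groups alone or with thinned cells, 4 without cells holding a Cd8 UMI and 0 with no library term. In Siglech against other CD8 cells 3 were higher when thinned, and in Havcr2 against Tcf7 CD8 cells 13 were, as by DESeq2, which called 0 lower. With 1 library left out there was no test, and members past 1.3-fold with a counting interval that left out 1 numbered 0 to 3 lower in dividing against other CD8 cells, 0 to 1 lower in regulatory T against conventional CD4 cells, 4 to 8 higher and 0 to 4 lower in conventional CD4 against other CD8 cells, and 1 to 2 lower in Havcr2 against Tcf7 CD8 cells. The 8 higher, and the 0 lower in dividing and in conventional CD4 against other CD8 cells, came without the VISTA-KO library. The cause of these changes was not tested. Thinning also leaves fewer UMIs and fewer cells, while the gates keep the unthinned UMIs. No paired analysis was possible because each genotype has 1 library, although the library term of the contrasts acts as a block. Vegfa, Pfkfb4, Egln3, Pfkm, Hk2 and Slc16a1 lay below 20 CPM in all groups and entered no count of ratios.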
